A study of Mus musculus with 6 samples.

Results

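The 10 genes described here are stress-response genes of the sestrin, Gadd45 and polo-like kinase families, with Trp53inp1 and Mdm2, in a mouse macrophage line grown on an implant polymer. They were named by symbol as a group and chosen by how they differed between the surfaces in earlier results of the same arrays, so their levels are given as a description with no test. All 10 were found among 19505 genes of the value table, each with 1 probe set. The cells were RAW264.7, an established mouse macrophage line derived from a virally induced tumour. They were cultured for 3 days on modified PEEK (3 arrays) or on pristine PEEK, the control (3 arrays). PEEK is polyetheretherketone, a polymer used for bone implants, and the labels do not say what was modified on it.

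Sestrins are leucine- and stress-responsive proteins that bind the GATOR2 complex and so hold back mTORC1, the kinase complex that couples nutrients to growth. Gadd45 proteins are small acidic proteins without enzyme activity that bind MAP3K4, PCNA and the CDK1 complex, and they are induced when growth stops or DNA is damaged. Most of these genes are known targets of the transcription factor p53, several are also induced by ATF4, FoxO factors or growth signals, and Mdm2 encodes the ubiquitin ligase that removes p53. In myeloid cells, Gadd45 proteins act on signalling through the p38 and JNK kinases.

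Expression was measured as log2 signal on Affymetrix arrays, and the median gene lay between 4.98 and 5.10 on each array. A background of 3.72 was set at the 95th percentile of the mean signals of 1412 odorant and pheromone receptor genes (Olfr, Vmn1r and Vmn2r), and all 10 genes lay above it on both surfaces in the mean. It is a low bar, since the median negative control probe set lay at 3.73 to 4.05 per array, above it on every array. On modified replicate 3, Trp53inp1 (3.97) and Sesn3 (4.02) lay under that array's control median of 4.05. All 9 measured macrophage markers lay well above both, between 8.12 and 12.04 on every array, and 6 of them did not pass between surfaces. The Fc receptor gene Fcgr1 (8.22 on modified and 9.07 on pristine PEEK) and the integrin gene Itgam (9.53 on modified and 10.12 on pristine PEEK) were lower on modified PEEK, and Adgre1, an adhesion receptor gene, was higher (8.76 on modified and 8.22 on pristine PEEK). Of 17 measured markers of fibroblasts, epithelium, lymphocytes and dendritic cells, 7 lay below background on both surfaces, the highest value was 6.44 (fibroblast list), and 1 passed the test between surfaces, the integrin gene Itgax of the dendritic list, at 4.50 on modified and 5.84 on pristine PEEK. The summed linear signal of that list was 91.8 to 117 on modified and 116 to 145 on pristine arrays, with 3 of its 4 genes above background on both. Besides Itgax, none of its genes passed or fell. Their changes were 0.21 for Zbtb46, 0.03 for Ccr7 and 0.007 for Flt3, which lay below background. The list's part in the results was not tested. Precision is limited by having 3 arrays a surface. The labels do not state that these were independent cultures, so p-values measure sample-to-sample spread alone, and that spread may be technical. In bulk RNA, fewer cells using a gene and less of its RNA per cell cannot be told apart.

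To place the genes, the RefSeq windows from 250 bases before to 50 bases after the transcription start (GRCm38.p6) were searched on both strands. The table holds 10 such windows for 9 of the genes, 2 of them for Sesn1, and Trp53inp1 was not matched. The windows printed are those of the gene with the largest rise, Sesn1, of both genes with the largest falls, Plk2 and Gadd45a, and of Mdm2. Capitals mark matches to the p53 half-site, the CRE (TGACGTCA), the FoxO site (TGTTTAC) and the CCAAT box (CCAAT).
Sesn1, upstream start, chr10:41810324-41810623, plus strand: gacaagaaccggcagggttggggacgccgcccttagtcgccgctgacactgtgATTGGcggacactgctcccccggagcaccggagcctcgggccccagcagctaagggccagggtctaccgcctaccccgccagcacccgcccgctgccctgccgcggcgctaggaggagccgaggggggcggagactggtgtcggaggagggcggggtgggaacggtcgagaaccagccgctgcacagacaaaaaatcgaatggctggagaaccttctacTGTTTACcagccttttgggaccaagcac
Sesn1, downstream start, chr10:41887189-41887488, plus strand: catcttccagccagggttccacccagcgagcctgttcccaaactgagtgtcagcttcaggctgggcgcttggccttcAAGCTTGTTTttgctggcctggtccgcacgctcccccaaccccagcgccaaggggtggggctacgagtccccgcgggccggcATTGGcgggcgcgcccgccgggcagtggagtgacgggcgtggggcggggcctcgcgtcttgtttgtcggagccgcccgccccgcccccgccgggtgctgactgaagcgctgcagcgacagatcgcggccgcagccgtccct
Plk2, chr13:110394794-110395093, plus strand: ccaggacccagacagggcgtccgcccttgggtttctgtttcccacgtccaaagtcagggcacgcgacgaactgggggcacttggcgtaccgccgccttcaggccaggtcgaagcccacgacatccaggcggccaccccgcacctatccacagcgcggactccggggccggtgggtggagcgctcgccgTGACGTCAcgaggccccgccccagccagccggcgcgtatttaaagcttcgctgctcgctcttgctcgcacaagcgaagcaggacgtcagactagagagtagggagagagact
Gadd45a, chr6:67037358-67037657, minus strand: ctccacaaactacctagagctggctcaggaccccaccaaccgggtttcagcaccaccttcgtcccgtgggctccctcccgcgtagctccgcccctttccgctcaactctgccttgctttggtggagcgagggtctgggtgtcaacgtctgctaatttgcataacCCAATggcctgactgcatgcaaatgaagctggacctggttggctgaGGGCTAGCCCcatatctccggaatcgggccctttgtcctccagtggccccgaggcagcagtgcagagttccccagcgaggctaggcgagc
Mdm2, chr10:117710709-117711008, minus strand: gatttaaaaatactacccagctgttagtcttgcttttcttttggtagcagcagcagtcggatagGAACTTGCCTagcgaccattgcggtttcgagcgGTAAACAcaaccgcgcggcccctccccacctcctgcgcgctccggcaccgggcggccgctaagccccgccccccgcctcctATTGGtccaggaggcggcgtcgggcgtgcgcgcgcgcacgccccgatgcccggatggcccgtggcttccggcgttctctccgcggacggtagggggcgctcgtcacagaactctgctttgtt

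A p53 half-site lay in 3 of these windows, at -173 to -164 from the downstream Sesn1 start, at -40 to -31 in Gadd45a and at -186 to -177 in Mdm2. The same letters occur in 8.36% of all 32851 windows of this length. The gene with the largest fall, Plk2, had no half-site there and was the only one of the 9 genes with a palindromic CRE, the site bound by CREB and ATF factors, at -62 to -55; 1.79% of all windows hold one. A FoxO site lay in the upstream Sesn1 window (23 to 29) and in that of Mdm2 (-153 to -147), against 3.65% of all windows. The TATA box (TATAAA) was found in Gadd45b and Gadd45g, 2 of 10 windows, beside 13.6% of all windows. The CCAAT box lay in 8 of 10 windows (37.4% of all) and the GC box (GGGCGG, not capitalised) in 9 of 10 (35.7% of all). AP-1 sites (TGANTCA), ATF4 composite elements (TGATGNAAT) and the CArG box were found in 0 of 10, beside 7.81%, 0.965% and 1.63% of all windows. These windows were rich in G and C, from 61.0% in Gadd45a to 71.0% at the downstream Sesn1 start, where the median of all windows is 52.7%. Matches are letters in a short window and not shown to be bound, and a known p53-driven promoter of Mdm2 within its first intron lies outside it.

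On modified PEEK, Sesn1 was higher and Sesn2, Gadd45a, Plk2, Plk3, Trp53inp1 and Mdm2 were lower than on pristine PEEK, with no array of one surface crossing into the range of the other. The sizes ran from 6.61-fold lower for Plk2 to 3.19-fold higher for Sesn1. Sesn3, Gadd45b and Gadd45g overlapped between the surfaces. In the limma fit across all genes, 1 of the 10 genes passed as higher and 6 as lower at an adjusted p under 0.05, beside 5.24% of all genes higher and 5.15% lower (10.4% in either direction). The surfaces did not overlap for 7 of the 10 genes, beside 28.8% of all genes. Because the genes were selected on this same contrast, nothing is read from these shares. The median change of the 10 genes was -0.61 and that of all genes 0.0088.

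**Figure D1:**
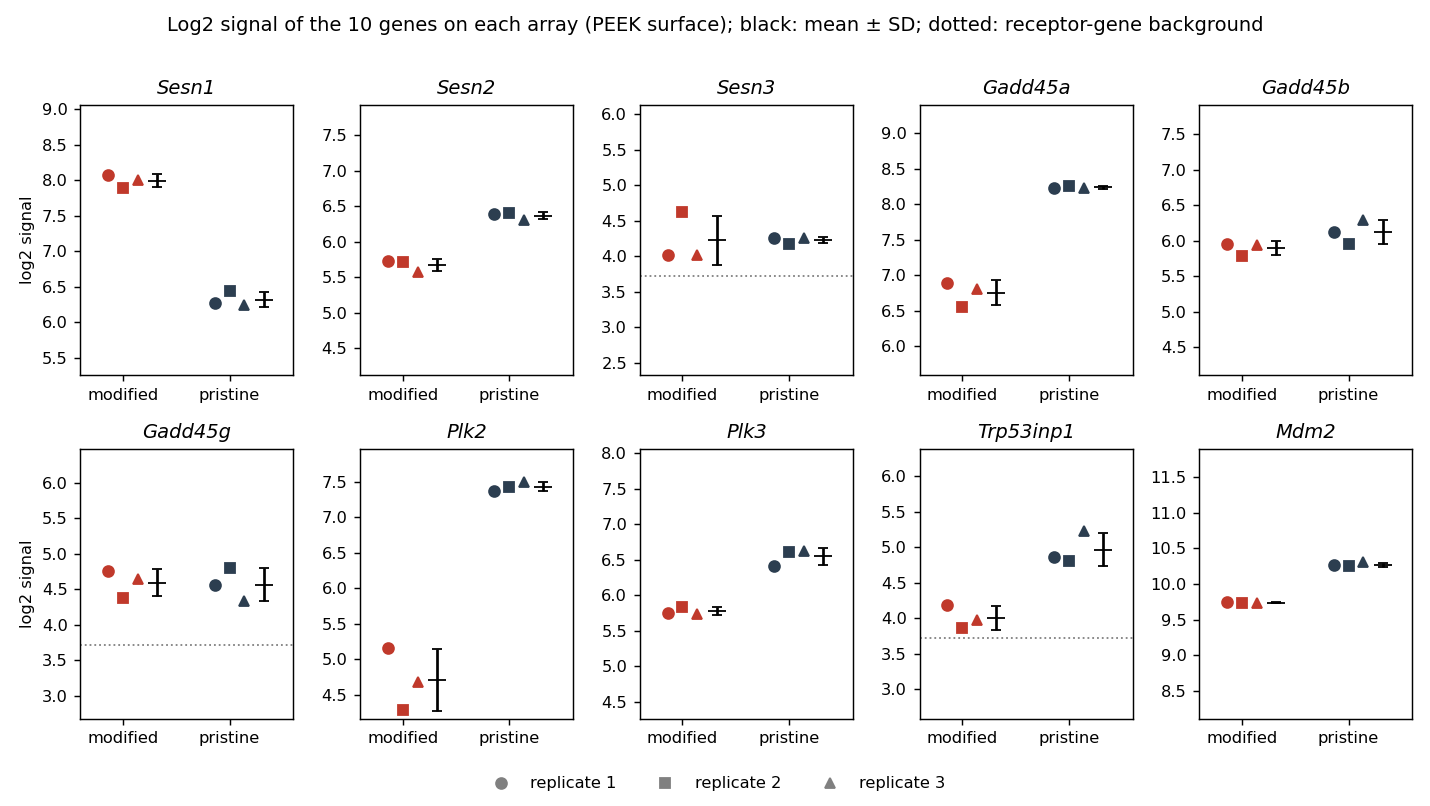
Log2 signal (vertical axes, each spanning the same range) of the 10 genes on the 3 arrays of modified PEEK (red, left) and of pristine PEEK (dark, right), with the mean and SD in black and the receptor-gene background of 3.72 as a dotted line where it falls in range. Sesn1 sits higher on modified PEEK, 6 genes sit lower without overlap, and Sesn3, Gadd45b and Gadd45g overlap.

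Among the sestrins, Sesn1 was higher, Sesn2 was lower and Sesn3 showed no clear direction. Sesn1, which represses mTORC1 signalling and is a classic p53 and FoxO target, had log2 signals of 8.08, 7.90 and 8.01 on modified PEEK, against 6.27, 6.44 and 6.24 on pristine PEEK. All 3 modified arrays were high, with a gap of 1.46 to the nearest pristine array. The change was 1.68 ± 0.10 (SE), the 10th largest rise of all genes. Sesn2, known as the sestrin induced by ATF4 and oxidative stress, had 5.73, 5.71 and 5.58 on modified PEEK, against 6.40, 6.40 and 6.31 on pristine PEEK. Its modified arrays were all low, by -0.69 ± 0.09, which is 1.62-fold. Sesn3, a FoxO-induced sestrin, had 4.02, 4.62 and 4.02 on modified PEEK, against 4.25, 4.17 and 4.26 on pristine PEEK. One modified array, replicate 2, lay above all pristine arrays and the other two lay below them, so no direction can be given. Taken as a ratio within each array, Sesn1 over Sesn2 shifted by 2.37 ± 0.09 towards Sesn1 on modified PEEK. Adding the same constant to all genes of an array leaves this ratio unchanged, while quantile normalization can change it.

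In the Gadd45 family the difference lay with Gadd45a. Gadd45a, the p53-induced member that binds PCNA and restrains CDK1, had 6.89, 6.55 and 6.81 on modified PEEK, against 8.22, 8.25 and 8.23 on pristine PEEK. The pristine arrays were tight (SD 0.02), and all modified arrays were at least 1.33 lower. The change was -1.48 ± 0.11, or 2.80-fold lower, the 52nd largest fall of all genes. Gadd45b, induced by TGF-beta and NF-kB and known to inhibit the JNK kinase MKK7, had 5.96, 5.78 and 5.94 on modified PEEK, against 6.12, 5.95 and 6.29 on pristine PEEK. Its surfaces overlapped by 0.01, and the change was -0.23 ± 0.12. Gadd45g, the cytokine-induced member, had 4.76, 4.38 and 4.65 on modified PEEK, against 4.56, 4.81 and 4.33 on pristine PEEK. The arrays of both surfaces were mixed, with a change of 0.03 ± 0.15. Within arrays, the ratio of Gadd45a to Gadd45b moved by -1.26 ± 0.11 and that of Gadd45a to Gadd45g by -1.51 ± 0.13, while Gadd45b to Gadd45g moved by -0.26 ± 0.24.

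Both stress-induced polo-like kinases were lower. Plk2, a growth-factor- and p53-induced kinase of centriole duplication and of synapse scaling in neurons, had 5.15, 4.28 and 4.68 on modified PEEK, against 7.36, 7.43 and 7.49 on pristine PEEK. The modified arrays were low and spread (SD 0.44, where the median gene has 0.15), the pristine arrays high and tight (SD 0.06). Plk2 changed by -2.72 ± 0.20, or 6.61-fold, the 9th largest fall of all genes, and its low values approach the background, where arrays compress differences. Plk3, a kinase that phosphorylates p53 and is induced early after stress, had 5.76, 5.84 and 5.74 on modified PEEK, against 6.42, 6.61 and 6.63 on pristine PEEK. All its modified arrays were low, by -0.77 ± 0.10, and the ratio of Plk2 to Plk3 within arrays moved by -1.95 ± 0.28.

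Trp53inp1 and Mdm2 were both lower on modified PEEK. Trp53inp1, encoding a p53-induced nuclear protein that promotes cell death and autophagy, had 4.19, 3.86 and 3.97 on modified PEEK, against 4.86, 4.80 and 5.24 on pristine PEEK. Its modified arrays lay just above the background of 3.72, so the change of -0.96 ± 0.14, or 1.94-fold, may be compressed. Mdm2, encoding the ubiquitin ligase that p53 itself induces, had 9.75, 9.73 and 9.74 on modified PEEK, against 10.26, 10.25 and 10.30 on pristine PEEK. This was the smallest of the 7 non-overlapping differences, -0.54 ± 0.08, with an SD of 0.01 on modified and 0.03 on pristine PEEK.

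Modified replicate 2 was the lowest of its surface for 7 of the 10 genes, including Sesn1 and, by only 0.01 below the mean, Mdm2; over all genes it was lowest for 33.7%. Replicate 3 was the lowest for Sesn2, Sesn3 and Plk3, and for Sesn3 and Plk3 replicate 2 was the highest, 0.40 and 0.06 above the mean. For Plk2 it lay 0.42 and for Gadd45a 0.20 below the surface's mean. The same array's mean of poly-A spikes, RNAs added as a control, was the lowest, 6.55 against 6.77 to 6.81 on the other modified arrays. It also had the lowest median of negative control probe sets, 3.73, against 3.93 and 4.05 on the other modified arrays. Its median gene, at 5.10, was the highest of all arrays. The part of these values in the deviations was not tested. Without that array, Plk2 changed by -2.51 and Gadd45a by -1.38.

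**Figure D2:**
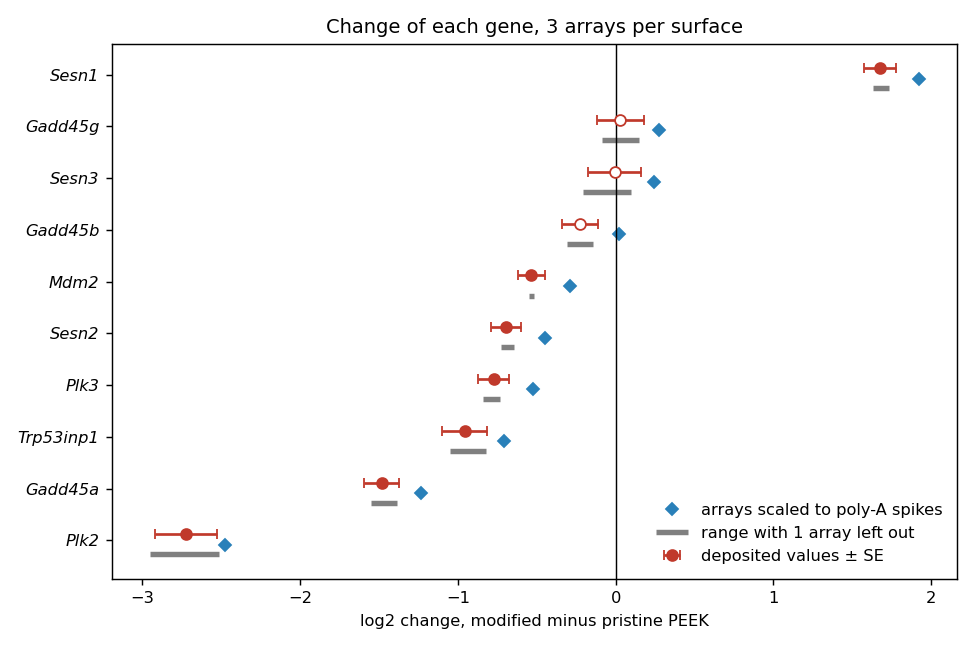
Log2 change, modified minus pristine PEEK, for each of the 10 genes (red circles, filled where the gene passed in the fit across all genes, with SE), the same after scaling the arrays to poly-A spikes (blue diamonds) and the range with 1 array left out (grey bars). Scaling moves every gene up by the same amount, and Gadd45b then lies at 0.02.

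The arrays were also scaled to spiked-in RNA, which adds the same amount to every gene's change. Poly-A spikes averaged 6.71 ± 0.14 on modified and 6.96 ± 0.15 on pristine PEEK (SD, n = 3). Scaled to them, the median of all genes moved to 0.26, and 1575 genes were higher and 290 lower, where the deposited values give 1023 higher and 1004 lower. Sesn1 then changed by 1.92, Plk2 by -2.48, Gadd45a by -1.24 and Trp53inp1 by -0.71, each still passing. Sesn2 (-0.45), Plk3 (-0.53) and Mdm2 (-0.29) kept their direction without passing, so 3 of the 10 genes were lower. Gadd45b stood at 0.02, Sesn3 at 0.24 and Gadd45g at 0.28, where the deposited values gave -0.23, -0.007 and 0.03. None of these passed on either scale.

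Other targets of p53 did not share a direction. Of 27 measured targets besides the 10 genes, 4 were higher and 3 lower at a limma adjusted p under 0.05. Over all genes, 10.4% passed in either direction. The list's median change was -0.02. Trp53i11, a p53-inducible gene, reached 7.40 ± 0.12 on modified PEEK, against 5.84 ± 0.13 on pristine PEEK (SD, n = 3), a rise of 1.56 (adjusted p = 0.000212). Dram1, a lysosomal regulator of autophagy, rose by 1.33 to 9.27 ± 0.04, against 7.94 ± 0.05 (adjusted p = 0.000176). The TNF receptor family genes Eda2r and Tnfrsf10b fell by 1.03 (adjusted p = 0.00111) and 0.95 (adjusted p = 0.000586). The remaining 3 that passed, named after their values were seen, were Cdkn1a, encoding the CDK inhibitor p21, at 10.15 ± 0.12 on modified PEEK against 10.82 ± 0.04 on pristine PEEK, Gtse1 (0.50) and Pidd1 (0.55). Cdkn1a did not pass on the spike scale, Gtse1 not without pristine PEEK replicate 3, and Pidd1 not with array weights or without any 1 array except pristine PEEK replicate 2. Rrm2b, a ribonucleotide reductase subunit gene (-0.43, adjusted p = 0.0912), and Bbc3, encoding the apoptosis inducer PUMA (-0.43, adjusted p = 0.204), did not pass. Without pristine PEEK replicate 3, 2 of these targets were higher.

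Of 24 listed genes, p53 and its regulators, 23 were measured. Trp53, the gene of p53 itself, was not among the measured genes, so its RNA level is not known here. Of the 23, 2 were higher and 1 lower, beside 10.4% of all genes in either direction, with a median of 0.05. Trp63, Trp73 and Cdkn2a lay below background on both surfaces. The DNA damage kinase genes Chek1 (8.29 ± 0.07 on modified against 7.38 ± 0.05 on pristine PEEK; SD, n = 3; adjusted p = 0.000622) and Atr (0.58, adjusted p = 0.00858) rose. Ppp1r13b, encoding the p53 cofactor ASPP1, fell by 0.54 (adjusted p = 0.0295), a call lost on the spike scale, with the replicate number as a block, and without modified PEEK replicate 2 or 3 or any 1 pristine array. Daxx (-0.37, adjusted p = 0.0666) and Chek2 (0.35, adjusted p = 0.172) did not pass. The count of lower genes was 3 without modified PEEK replicate 1 and 0 without any other array.

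The list of the nutrient-sensing machinery that sestrins act on held 41 measured genes of GATOR, the Rag GTPases, mTORC1, TSC and AMPK. Of these, 2 were higher and 1 lower, beside 10.4% of all genes in either direction, with a median of -0.07. When the variance was allowed to follow intensity, 5 were higher and 6 lower, beside 1586 higher and 1719 lower of all 19505 genes. Deptor, encoding an inhibitor of mTOR, was at 6.51 ± 0.06 on modified PEEK, against 5.33 ± 0.15 on pristine PEEK (SD, n = 3), a rise of 1.18 (adjusted p = 0.000455). Prkag2, an AMPK subunit gene, rose by 0.65 (adjusted p = 0.0111). Rragd, encoding the Rag GTPase RagD, fell by 0.86 (adjusted p = 0.0253) to 3.91 ± 0.34, next to the background, against 4.77 ± 0.25, and lost its call on the spike scale and without modified PEEK replicate 1 or 3 or pristine PEEK replicate 1 or 2. The arginine sensor gene Castor1 (-0.64, adjusted p = 0.0796) and the KICSTOR subunit gene Kptn (0.46, adjusted p = 0.125) did not pass. Lower genes numbered 2 without modified PEEK replicate 1, and 0 without modified PEEK replicate 3 or pristine PEEK replicate 2.

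The partners of Gadd45 proteins and the other polo-like kinases held 5 higher and 1 lower among 17 measured genes. The share of all genes was 10.4% in either direction, and the list's median change was 0.19. The mitotic kinase genes Plk1 (9.64 ± 0.13 on modified against 8.35 ± 0.09 on pristine PEEK; SD, n = 3; adjusted p = 0.000314), Cdk1 (1.12, adjusted p = 0.000515) and Aurka (0.93, adjusted p = 0.00107) rose, while their relative Plk2 was lower. Map2k6, which activates p38, rose by 0.94 (adjusted p = 0.0111). The p38 genes themselves, named after their values were seen, were split, Mapk14 higher (0.37) and Mapk11 lower (-0.60). Mapk11 did not pass on the spike scale, and Mapk14 not when centred on array medians, with the replicate number as a block or without any 1 array. Map3k4, whose product Gadd45 proteins bind, was at 0.50 (adjusted p = 0.0536) and Plk4 at 0.37 (adjusted p = 0.161), neither passing. Without modified PEEK replicate 3, 3 of these genes were higher, and Map2k6 was not among them (adjusted p = 0.0528).

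Of 17 measured stress transcription factor genes, 4 were lower and 0 higher by limma, with a median of -0.07. Over all genes, 5.15% were lower and 5.24% higher. At an unadjusted limma p under 0.05, 7 stress factor genes were lower and 1 higher. At that threshold p53 targets held 5 higher and 7 lower, p53 and its regulators 6 and 4, nutrient sensing 6 and 7, and Gadd45 partners 8 and 1. The share of all genes at this looser threshold was not counted. It is above the 10.4% that passed after adjustment, so nothing is read from these unadjusted counts. Ddit3, encoding CHOP of the ATF4 pathway, was at 8.53 ± 0.29 on modified PEEK, against 9.67 ± 0.05 on pristine PEEK (SD, n = 3), a fall of 1.13 (adjusted p = 0.00216). Nupr1 fell by 0.59 (adjusted p = 0.0101), Atf3 by 0.41 (adjusted p = 0.0307) and the NF-kB subunit gene Rela by 0.34 (adjusted p = 0.0492). Atf4 (-0.34, adjusted p = 0.0516) and Hif1a (-0.35, adjusted p = 0.0868) did not pass. Leaving out any 1 array left 2 lower, or 3 where it was modified PEEK replicate 1. On the spike scale 1 stayed lower, Ddit3, and Atf3 and Rela also lost their calls when centred on array medians (2 genes lower).

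**Figure D3:**
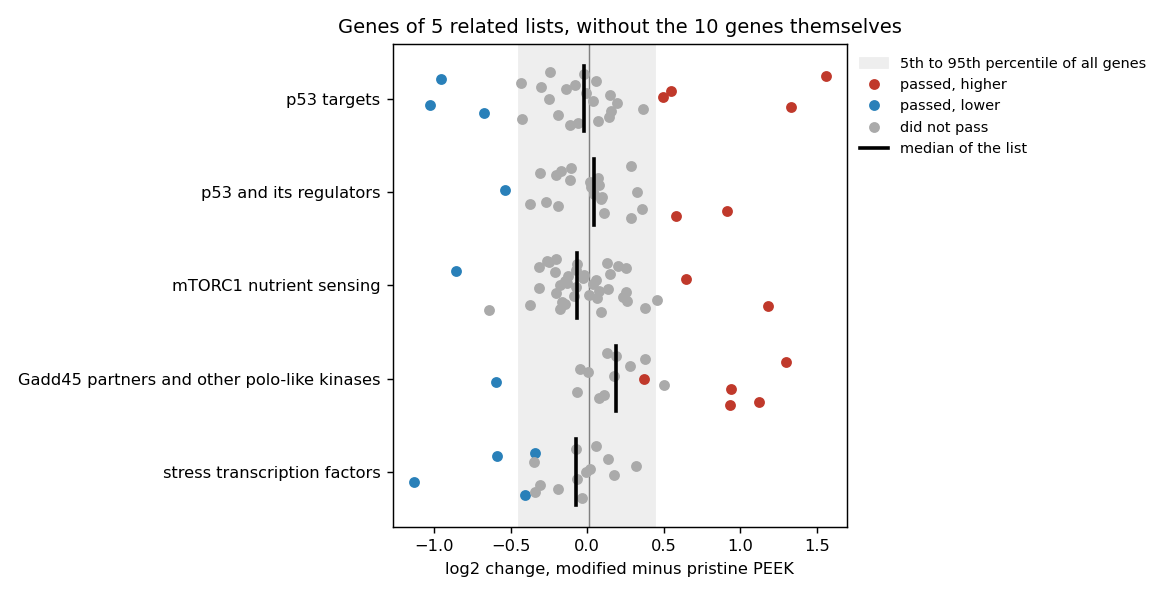
Log2 change, modified minus pristine PEEK, of each measured gene in the 5 related lists, red where it passed as higher, blue as lower and grey where it did not pass, with the list's median as a black line and the 5th to 95th percentile of all genes (-0.44 to 0.44) shaded. Each list's median lies within 0.2 of that of all genes.

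The genes most like Sesn1 and Plk2 were named by the root mean square difference of profiles over the 6 arrays, each centred on its gene's mean, as a description. Nearest to Sesn1 were Igf1, encoding insulin-like growth factor 1 (0.084 log2), Melk, a kinase of dividing cells (0.089), Trp53i11 (0.090), the DNA glycosylase gene Neil3 (0.094) and Klhl6, a cullin-3 adaptor gene (0.10). Their changes lay between 1.53 and 1.80. Nearest to Plk2 were Aqp9, a water and glycerol channel gene (0.16), Atp6v0d2, a proton pump subunit gene of osteoclasts and macrophages (0.22), the decoy interleukin-13 receptor gene Il13ra2 (0.26), Emp2 (0.26) and the glycosyltransferase gene Galnt3 (0.28). Plk2 had more distant neighbours than Sesn1, and Galnt3 lay below the background on modified PEEK (3.60), so its profile there has no measured level.

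**Figure D4:**
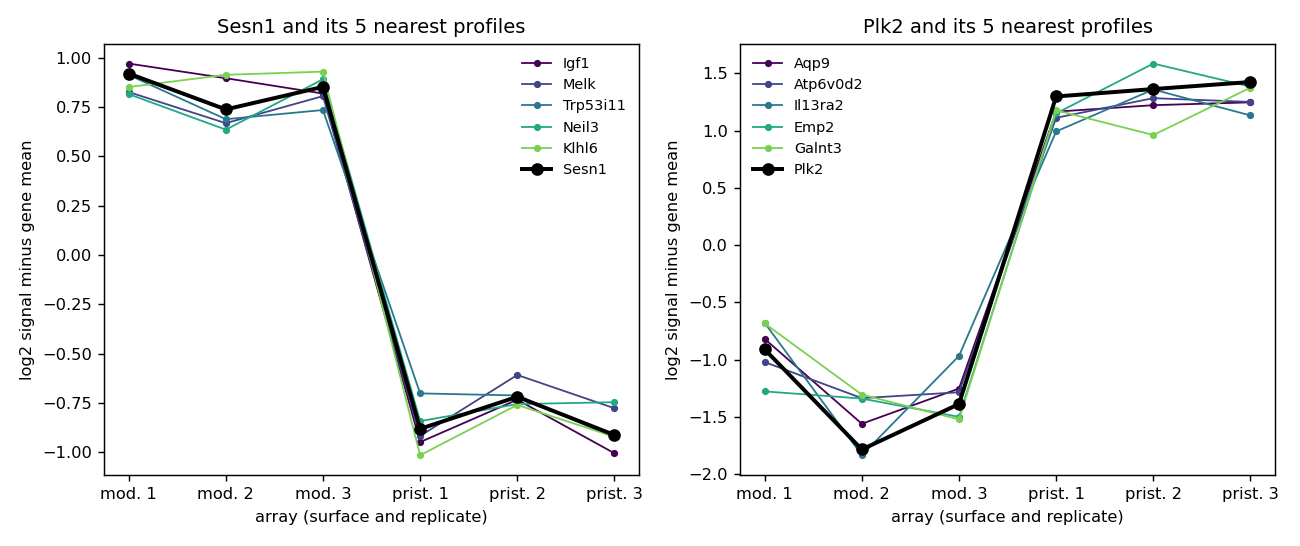
Log2 signal minus the gene's mean over the 6 arrays (vertical axis) on each array (horizontal axis, modified PEEK left, pristine PEEK right) for Sesn1 and Plk2 (black) and the 5 genes with the nearest profiles. Lines only join the arrays of 1 gene; Plk2, Aqp9 and Il13ra2 share the dip on modified replicate 2.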

How the data were processed

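Total RNA (250 ng per sample) from RAW264.7 cells was labelled with biotin and hybridised to Affymetrix mouse arrays, per the labels' protocols. The authors deposited 1 log2 signal per probe set and array; RMA is named in the submitters' processing notes, with no version or role, and the log2 scale was taken from the values (0.941 to 12.4). RMA includes quantile normalization, which hides a change in total RNA per cell. The platform annotation named 1 gene for 19572 of 29129 features, and a gene with several was represented by its highest-mean probe set. No source used here states the build of the arrays' annotation, so coordinates are those of RefSeq's promoter windows (GRCm38.p6).

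Surfaces were compared across 19505 genes with limma 3.58.1 in R 4.3.3 (lmFit, eBayes, two-sided), modified minus pristine PEEK, without covariates or a filter on dim genes, and p-values were adjusted by Benjamini-Hochberg over all genes. SE values of the 10 genes come from that fit. The SE of a ratio of 2 genes comes from the spread of the ratio itself. Named were the 10 genes; from each of 5 lists up to 4 genes that passed and 2 that did not, by largest change; and the 5 nearest profiles of the largest riser and faller. The genes and lists were chosen with earlier results of these data known. On simulated data with the layout of this comparison (19505 genes), the fit recovered 18.7% of genes raised by 0.5, 72.0% of those raised by 1 and 98.7% of those raised by 2. Far fewer genes were changed there than passed here, and each gene's observed spread was taken as its true spread. These shares therefore do not give the recovery in the real data. Same-numbered samples did not deviate together (correlations -0.17, -0.16 and 0.07 over genes), so replicate numbers were not taken as pairs.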

Additional observations from a re-analysis of the deposited data

How the results depend on the processing

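Of 15 alternatives, scaling to poly-A spikes left 3 of the 10 genes lower, since Sesn2, Plk3 and Mdm2 no longer passed. Without the lowest 50% of genes, 5 were lower, since Trp53inp1 was not in that fit. The other alternatives gave 6. The genes were chosen on this contrast, so these counts are no support for them. Leaving out the lowest 50% of genes by mean dropped Sesn3, Gadd45g and Trp53inp1. Over all genes, 1586 were higher and 1719 lower with an intensity trend, 646 and 622 with the replicate block, 1575 and 290 on the spike scale, and 1521 lower without the lowest 50%; leaving out 1 array gave 594 to 903 higher and 548 to 1048 lower. For p53 regulators, 5 were higher with the trend, 4 on the spike scale and 4 without the lowest 50%. Of them, 2 were lower with quantile normalization again, with the trend, with array weights and without the lowest 25% or 50%, 0 on the spike scale or with the block, and 0 to 3 without 1 array. For nutrient sensing, 5 were higher with the trend and 4 on the spike scale or without the lowest 50%; 6 were lower with the trend, 3 without the lowest 50%, 2 with array weights, 0 on the spike scale and 0 to 2 without 1 array. For stress factors, 8 were lower with the trend, 7 without the lowest 50%, 2 when centred on array medians or with the block, 1 on the spike scale and 2 to 3 without 1 array. Of Gadd45 partners, 0 were lower on the spike scale and 3 to 5 higher without 1 array; of p53 targets, 2 to 4 were higher without 1 array. Only some of those fits held fewer arrays or genes, and the cause of the differing counts was not tested. The block changed no call among the 10 genes. Signals near background limit Plk2, Trp53inp1, Sesn3 and Gadd45g.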
